A study of Arabidopsis thaliana with 12 samples.

Results

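Of the 19522 genes measured in whole seedlings of Arabidopsis thaliana, 150 were more abundant in the ethylene-insensitive mutant ein2-5 than in its wild type Col-0 and stayed close to the same level whether or not glucose was given. They were chosen from these data, on the scale log2(CPM + 1), where CPM is reads scaled to 1000000 per library. A gene was taken when its group mean in ein2-5 was at least 1 above that in Col-0 both without and with glucose. Its glucose difference had to stay below 0.3 in absolute value in both genotypes, and every ein2-5 library had to lie above every Col-0 library. The genotype limit alone left 776 genes, separation of the libraries left 597, the glucose limit in Col-0 left 264, and the same limit in ein2-5 left 150. DFR, LDOX and UF3GT of anthocyanin synthesis and all organellar loci were set aside by the rule, which removed none of the 150. Genotype and glucose differences of these genes were therefore fixed by the choice and are given as a description, with no test.

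Messenger RNA had been sequenced from 4 groups of 3 libraries. These were Col-0 without glucose, Col-0 given 15 mM glucose for 2 h, and ein2-5 in the same pair of conditions, all from seedlings 4 days old. The titles and the treatment tag of each sample tell the groups apart, while the protocol entry, worded alike for all 12, names the glucose treatment also for untreated samples. All seedlings carried the Col-0 background and had grown in liquid medium without glucose, at 22 to 23 °C with 12 h of light per day. ein2-5 is a loss-of-function allele of EIN2, and the mutant and wild type are each a single line. Nothing in the labels tells whether replicate libraries were grown apart, and p-values therefore cover only the spread among the libraries at hand, part of which may be technical. Whole seedlings mix organs, and a higher share of a cell type cannot be told apart from more RNA per cell of that type.

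EIN2 is a membrane protein of the endoplasmic reticulum that relays the signal of the ethylene receptors toward the nucleus, where EIN3 and its relatives switch on the response. In ethylene, elongation and division of seedling cells are held back, and plants without EIN2 do not respond. Glucose serves seedlings both as fuel and as a signal that restarts growth and the cell cycle, and ethylene and glucose signals are known to oppose each other in seedlings.

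Between 11470134 and 17461274 reads were recovered per library, and 3 reads, taken as the floor, equal 0.172 to 0.262 CPM. EIN2 itself stood at 137, 125 and 125 CPM in Col-0 without glucose, 116, 118 and 105 CPM in Col-0 with glucose, 60.2, 43.4 and 56.8 CPM in ein2-5 without glucose and 50.3, 49 and 48.5 CPM in ein2-5 with glucose. All ein2-5 libraries lay below all Col-0 libraries for this gene. Libraries differed in seed storage transcripts, with sums for 12 seed markers of 1.15 to 161 CPM in Col-0 without glucose, 1.49 to 3.26 CPM in Col-0 with glucose, 778 to 1353 CPM in ein2-5 without glucose and 145 to 3437 CPM in ein2-5 with glucose. No marker of this list was at 0 in any ein2-5 library, whereas up to 6 of the 12 were at 0 in Col-0 libraries. Root markers summed to 104 to 134 CPM in Col-0 and 147 to 236 CPM in ein2-5, and green shoot markers to 44799 to 58959 CPM and 28607 to 48509 CPM. The part of these marker differences in the results on the 150 genes was not tested. Values without some libraries are given below, but they keep all ein2-5 libraries without glucose and so do not remove the marker differences.

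Over the 150 genes, the median genotype difference on log2(CPM + 1) was 1.28 without and 1.34 with glucose, beside 0.15 and 0.02 over all 19522 genes. Most members lay near the limit: in 124 the smaller of both differences was under 1.5, and in 10 it was 2 or more. The median glucose difference was 0.02 in Col-0 and 0.09 in ein2-5, beside 0.19 and 0.09 over all genes. By limma with Benjamini-Hochberg adjustment over all genes, 35.3% of all genes were called higher in ein2-5 without glucose and 26.1% with glucose, and 11.0% of all genes had every ein2-5 library above every Col-0 library. Of the members, 6 were called for glucose in Col-0 and 3 in ein2-5, where 60.3% and 42.9% of all genes were called. The change of the genotype difference with glucose was called in 2, NAI1 and UBC20, where 18.8% of all genes were called. Nothing is read from these counts because the rule used the same contrasts. The lowest ein2-5 library of a member stood 1.86 times above its highest Col-0 library in the median, and 1.15 times above it in the closest case. In the opposite direction the same limits gave 38 genes.

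The word glucose-insensitive holds for the values as deposited and depends on their scaling. The median of all genes differed by 0.15 between the genotypes without glucose and by 0.19 between the conditions in Col-0. After scaling by TMM (trimmed mean of M-values), which brings those medians to 0.00 and 0.01, all 150 genes stayed higher in ein2-5 in both conditions, by at least 0.85 without glucose. The glucose difference in Col-0 then fell to −0.3 or below in 31 members, and 18 members were called lower with glucose in Col-0 by limma after adjustment over all genes, as were 29.9% of all genes. With TMM, 82 of the 150 met every limit. Over all genes, TMM gave 103 that met the rule and 39 that met it in the opposite direction, beside 150 and 38 as deposited. The medians of the members became 1.16 without and 1.31 with glucose, and −0.13 and 0.04 for glucose in Col-0 and ein2-5.

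**Figure D1:**
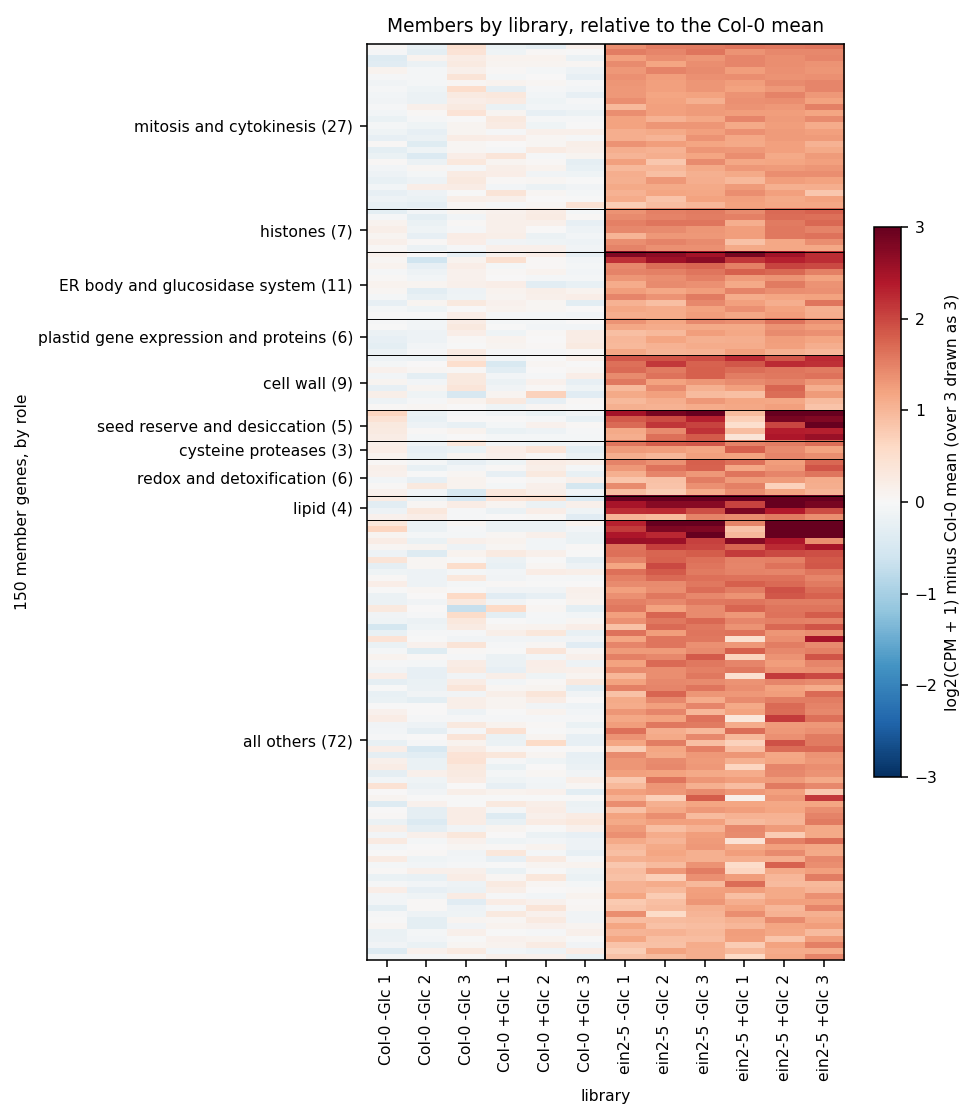
Heat map of the 150 genes (rows, grouped by role, the number of genes in parentheses) in the 12 libraries (columns). Colour gives log2(CPM + 1) minus the mean of the 6 Col-0 libraries for that gene, and differences over 3 are drawn as 3; the ein2-5 columns are red throughout by the rule, and the column ein2-5 +Glc 1 is pale for the 5 seed genes and for some of the 72 genes with no role.

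Members ranged from 1.56 to 4991 CPM as means of the 6 ein2-5 libraries. In ein2-5, 61 were under 10 CPM and 13 were at 100 CPM or more, while 28 were under 1 CPM in Col-0. On log2(CPM + 1) the difference of such low genes is understated. Of the 150, 148 were protein coding genes, and 74 carried a gene symbol beyond their locus code. Products and known functions placed 78 in 9 roles, which were assigned after the members were known and carry no test, nor do the families set beside them. Genes described below by role were likewise picked after their values had been seen, unless they rank among the 20 largest genotype differences or the 10 highest levels.

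The largest role was mitosis and cytokinesis, with 27 genes. These genes act from the entry into mitosis to the building of the cell plate, the new wall that divides a plant cell. Their genotype differences were 1.00 to 1.5 without glucose and 1.01 to 1.69 with glucose. Means over the 6 libraries of a genotype were 2.12 to 27.5 CPM in Col-0 and 6.25 to 64.2 CPM in ein2-5, so the ratio of these means was 2.21 to 3.27. Their median glucose difference was 0.05 in Col-0 and 0.08 in ein2-5.

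B-type cyclins, which activate the mitotic cyclin-dependent kinases, supplied 5 members. CYCB1;2, listed as CYC1BAT (chr5:1859279-1861703, minus strand), stood at 5.5, 4.47 and 7.85 CPM in Col-0 without glucose, 5.12, 5.86 and 5.55 CPM in Col-0 with glucose, 18.2, 17.4 and 19.3 CPM in ein2-5 without glucose and 15.9, 16.9 and 17 CPM in ein2-5 with glucose. The lowest ein2-5 library was 15.9 CPM and the highest Col-0 library 7.85 CPM, and the difference was 1.5 without and 1.44 with glucose (SE 0.14 each). CYCB2;2 (chr4:16901596-16904001, plus strand) stood at 2.43, 2.06 and 2.58 CPM in Col-0 without glucose, 2.26, 2.1 and 1.87 CPM in Col-0 with glucose, 6.93, 8 and 7.6 CPM in ein2-5 without glucose and 6.62, 7.26 and 7.06 CPM in ein2-5 with glucose. Its ein2-5 libraries were all within 6.62 to 8 CPM, and glucose moved neither genotype by more than 0.12 on the log2 scale. CYCB1;3 had 1.6 to 2.47 CPM over the 6 Col-0 libraries and 5.56 to 7.05 CPM over the 6 ein2-5 libraries. For CYCB1;4 the ranges were 3.07 to 5.21 CPM over the 6 Col-0 libraries and 11.5 to 13.6 CPM over the 6 ein2-5 libraries, and for CYCB2;4 they were 3.21 to 5.56 CPM over the 6 Col-0 libraries and 10.9 to 12.1 CPM over the 6 ein2-5 libraries. Of the 10 B cyclins measured, 9 had every ein2-5 library above every Col-0 library, as had 11.0% of all genes. The 5 members are among the 9 by the rule, and nothing is read from the count. CYCB1;1, a standard marker of dividing cells, was 1.28 without and 1.33 with glucose above Col-0 and missed the rule only through its glucose difference of 0.31 in ein2-5. CYCB1;5 was the exception, at −0.47 without and −0.25 with glucose.

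The kinases and the destruction machinery of mitosis were represented as well. CDKB2;1, a plant-specific cyclin-dependent kinase of the late cell cycle, had 6.73 to 9.11 CPM over the 6 Col-0 libraries and 17.1 to 19.9 CPM over the 6 ein2-5 libraries. All 4 CDKB genes were separated between the genotypes, as were 11.0% of all genes, but the rule required this of the member CDKB2;1. CDKB1;2 was the gene nearest to the genotype limit from outside, at 0.997. AUR1, an Aurora kinase of the spindle and cell plate, had 3.1 to 6.13 CPM over the 6 Col-0 libraries and 10.4 to 12.6 CPM over the 6 ein2-5 libraries, with differences of 1.16 without and 1.45 with glucose. Its relatives AUR2, at 0.59 without and 0.80 with glucose, and AUR3, at 0.52 and 0.79, missed the genotype limit. The libraries of AUR3 overlapped between the genotypes. CDC20.1, which directs the anaphase-promoting complex to cyclins, stood at 10.6, 8.7 and 14.8 CPM in Col-0 without glucose, 9.05, 8.32 and 11.4 CPM in Col-0 with glucose, 28.9, 31.9 and 32.2 CPM in ein2-5 without glucose and 33.2, 32.5 and 33.3 CPM in ein2-5 with glucose. No Col-0 library was over 14.8 CPM, and no ein2-5 library was under 28.9 CPM. UBC20, a ubiquitin-conjugating enzyme of the same pathway, had 9.88 to 14.1 CPM over the 6 Col-0 libraries and 23.5 to 35 CPM over the 6 ein2-5 libraries.

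Structural genes of the spindle and the phragmoplast, the microtubule array that lays down the cell plate, made up most of the role. HIK (HINKEL), a kinesin needed for cytokinesis, stood at 5.5, 6.3 and 8.94 CPM in Col-0 without glucose, 7.74, 7.74 and 7.55 CPM in Col-0 with glucose, 21.1, 17.7 and 20.4 CPM in ein2-5 without glucose and 21.6, 20.5 and 19.8 CPM in ein2-5 with glucose. KINESIN-12B, a phragmoplast kinesin, had 6.57 to 10.1 CPM over the 6 Col-0 libraries and 18.3 to 22.4 CPM over the 6 ein2-5 libraries, with a difference of 1.27 without and 1.1 with glucose. TPX2, a spindle assembly factor, EB1C, a microtubule plus-end protein, and ATK5, a minus-end directed kinesin, had differences of 1.18 without and 1.12 with glucose, of 1.25 without and 1.3 with glucose and of 1.06 without and 1.29 with glucose. ATN, the locus of TANGLED, which marks the division plane, was among the 3 members nearest to the genotype limit, at 1.01 with glucose. TOPII, the topoisomerase that untangles sister chromatids, was the most abundant gene of the role, with 22.8 to 31.8 CPM over the 6 Col-0 libraries and 56.6 to 71.5 CPM over the 6 ein2-5 libraries. 3xHMG-box2, which binds mitotic chromosomes, had 14.1 to 16.7 CPM over the 6 Col-0 libraries and 37.4 to 44.6 CPM over the 6 ein2-5 libraries.

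MYB3R-4 is a transcription factor that activates genes of the G2 and M phases. It stood at 4.79, 4.64 and 6.01 CPM in Col-0 without glucose, 5.65, 6.01 and 8.09 CPM in Col-0 with glucose, 10.3, 11.8 and 12.5 CPM in ein2-5 without glucose and 14.7, 14.2 and 14.1 CPM in ein2-5 with glucose. Its genotype difference was 1.03 without and 1.03 with glucose (SE 0.13 each), and its glucose differences, 0.30 in Col-0 and 0.29 in ein2-5 after rounding, were among the largest the rule admits. Group means of the 3 other MYB3R genes measured were not higher in ein2-5: MYB3R-3, a repressor of the same targets, was at −0.31 without and −0.09 with glucose, MYB3R-5 at −0.31 without and 0.00 with glucose, and PC-MYB1, the locus of MYB3R-1, at −0.26 without and −0.1 with glucose.

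MYB3R proteins are known to bind the M-phase-specific activator element, whose core is AACGG. The core was searched on both strands (AACGG or CCGTT) in the 250 bases before the annotated start of each gene, with RefSeq gene starts on TAIR10.1. It occurred in 14 of the 27 promoters of the mitotic role (51.9%), in 58 of the 150 members (38.7%) and in 22% of the 19351 promoters of genes in the table. At least 2 cores were found in 29.6% of the mitotic promoters, 14.7% of the members and 4.09% of all promoters. The motif was added after the members were known, and the shares are a description with no test. The 4 promoters of the role with the most cores and no neighbouring gene in the window are shown, 5′ to 3′ toward the gene, with every core of either strand in capitals. They lie at chr5:1861704-1861953, minus strand (CYCB1;2, 4 cores), chr3:3627274-3627523, minus strand (CYCB1;3, 3 cores), chr4:16901346-16901595, plus strand (CYCB2;2, 3 cores) and chr3:8518886-8519135, plus strand (KINESIN-12B, 3 cores).
CYC1BAT: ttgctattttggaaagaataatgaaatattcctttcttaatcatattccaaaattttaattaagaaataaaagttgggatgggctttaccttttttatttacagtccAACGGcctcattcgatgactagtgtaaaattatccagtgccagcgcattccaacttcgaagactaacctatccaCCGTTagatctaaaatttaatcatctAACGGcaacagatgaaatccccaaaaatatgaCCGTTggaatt
CYCB1;3: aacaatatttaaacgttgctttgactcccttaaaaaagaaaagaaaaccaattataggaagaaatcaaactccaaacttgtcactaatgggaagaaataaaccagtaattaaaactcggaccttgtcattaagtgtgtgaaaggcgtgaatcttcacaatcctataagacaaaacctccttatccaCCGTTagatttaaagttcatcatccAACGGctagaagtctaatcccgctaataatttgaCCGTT
CYCB2;2: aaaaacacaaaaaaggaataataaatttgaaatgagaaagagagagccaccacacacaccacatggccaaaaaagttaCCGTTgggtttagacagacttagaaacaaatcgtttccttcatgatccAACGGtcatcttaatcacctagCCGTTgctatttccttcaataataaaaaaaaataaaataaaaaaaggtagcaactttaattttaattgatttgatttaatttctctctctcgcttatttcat
KINESIN-12B: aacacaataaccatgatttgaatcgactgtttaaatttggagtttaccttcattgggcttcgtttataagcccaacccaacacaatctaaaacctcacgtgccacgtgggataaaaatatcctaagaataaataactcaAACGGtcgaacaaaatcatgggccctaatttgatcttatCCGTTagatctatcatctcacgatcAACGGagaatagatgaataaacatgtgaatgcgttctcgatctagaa
In CYCB1;2 the cores began 143, 69, 43 and 11 bases before the gene, and in CYCB1;3 64, 39 and 5 bases before it. Those of KINESIN-12B began 111, 72 and 47 bases before it. In CYCB2;2 they lay farther out, at 172, 124 and 102 bases.

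Histone genes gave 7 members. Their differences were 1.19 to 1.63 without and 1.1 to 1.54 with glucose. HTA6, a histone H2A, stood at 25.1, 21 and 23.8 CPM in Col-0 without glucose, 28.9, 30.8 and 26.4 CPM in Col-0 with glucose, 70.7, 74.6 and 76.9 CPM in ein2-5 without glucose and 75.3, 84.1 and 83.1 CPM in ein2-5 with glucose. Its Col-0 libraries ended at 30.8 CPM and its ein2-5 libraries began at 70.7 CPM. HTB2, a histone H2B, had 19.6 to 24.9 CPM over the 6 Col-0 libraries and 53.9 to 67.7 CPM over the 6 ein2-5 libraries, and HTA11, an H2A.Z variant, had 8.42 to 12 CPM over the 6 Col-0 libraries and 21.5 to 33.5 CPM over the 6 ein2-5 libraries. AT5G59690, annotated only as a histone superfamily protein, was the highest of the 7, with 46.4 to 59.9 CPM over the 6 Col-0 libraries and 96.7 to 147 CPM over the 6 ein2-5 libraries. Histone genes occur in near-identical copies, and the counting settings that share reads among copies were not given, so the split among copies is uncertain. The AACGG core was present in 5 of the 7 promoters, with at least 2 cores in 4 of them. Over all promoters these shares were 22% and 4.09%, and over all members 38.7% and 14.7%. The motif was added after the members were known, and no test was made.

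**Figure D2:**
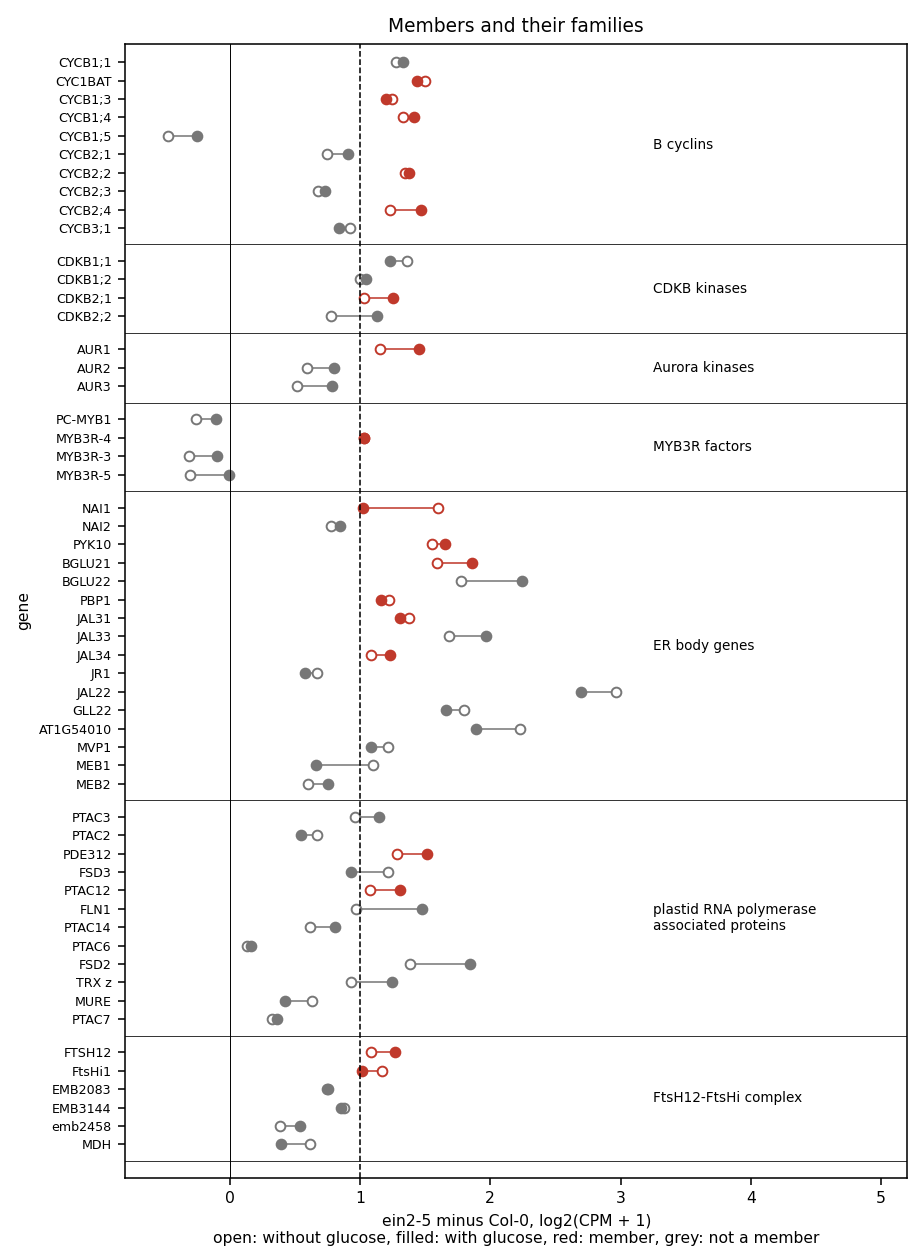
Genotype difference on log2(CPM + 1) for the measured genes of 7 families (horizontal axis), without glucose (open) and with glucose (filled), members in red and other genes of the family in grey; the dashed line is the limit of 1. Among the B cyclins 9 of 10 lie to the right of 0, whereas of the MYB3R genes MYB3R-4 alone does so in both conditions.

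The most abundant members belonged to the ER body and glucosidase system, with 11 genes. ER bodies are compartments of the endoplasmic reticulum of Brassicaceae seedlings and roots, filled with beta-glucosidases that meet their substrates and their binding lectins when the tissue is wounded. PYK10, the main beta-glucosidase of the ER body (chr3:2840477-2843781, minus strand), stood at 1599, 1480.2 and 1778 CPM in Col-0 without glucose, 1671, 1763 and 1556 CPM in Col-0 with glucose, 4595, 4654 and 4954 CPM in ein2-5 without glucose and 5633, 5428 and 4681 CPM in ein2-5 with glucose. Every ein2-5 library was at 4595 CPM or more and every Col-0 library at 1778 CPM or less. The means were 1619 ± 150.0 CPM and 4734 ± 192 CPM without glucose and 1663 ± 104 CPM and 5247 ± 501 CPM with glucose (SD, n = 3 libraries each), Col-0 first. Per kb of exon, PYK10 was the highest member in ein2-5, at 2763 CPM per kb, followed by PBP1 at 987, CPN60B at 389, AT4G23670 at 327 and JAL34 at 319 CPM per kb.

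PBP1, a jacalin-type lectin that binds PYK10, stood at 619, 594 and 654 CPM in Col-0 without glucose, 698, 669.9 and 658 CPM in Col-0 with glucose, 1451, 1402 and 1498 CPM in ein2-5 without glucose and 1689, 1503 and 1362 CPM in ein2-5 with glucose. Its neighbour JAL31 had 36.4 to 42.2 CPM over the 6 Col-0 libraries and 90.3 to 111 CPM over the 6 ein2-5 libraries, and JAL34 from the same chromosomal cluster had 412 to 499 CPM over the 6 Col-0 libraries and 923 to 1037 CPM over the 6 ein2-5 libraries. BGLU21, a close relative of PYK10, had 99.3 to 134 CPM over the 6 Col-0 libraries and 319 to 484 CPM over the 6 ein2-5 libraries, with the larger difference with glucose (1.59 without and 1.86 with glucose). Such relatives may share reads with PYK10 or with each other.

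NAI1, the bHLH factor required to form ER bodies and to express PYK10, stood at 21.9, 19.5 and 21.1 CPM in Col-0 without glucose, 24.4, 25.7 and 26.6 CPM in Col-0 with glucose, 65.2, 60 and 70.1 CPM in ein2-5 without glucose and 51.1, 53.9 and 54.2 CPM in ein2-5 with glucose. Glucose went with a higher level in Col-0 and a lower one in ein2-5, by 0.28 and −0.29, both just inside the limit of 0.3. The genotype difference was 1.6 without and 1.03 with glucose (SE 0.08 each), the latter close to the limit of 1. All 16 ER body genes measured had every ein2-5 library above every Col-0 library, as had 11.0% of all genes. Nothing is read from this count, because the rule required it of the members and the family was chosen with them known. Of the 16, 12 met the genotype limit and 6 were members. Those outside included JAL22, with 2.96 without and 2.7 with glucose, and NAI2, an ER body component, with 0.78 without and 0.84 with glucose.

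TGG2, a myrosinase that hydrolyses glucosinolates, was among the largest differences of all members. It stood at 4.93, 4.47 and 3.55 CPM in Col-0 without glucose, 4.94, 5.21 and 3.54 CPM in Col-0 with glucose, 36, 33.9 and 29.5 CPM in ein2-5 without glucose and 38.1, 30.1 and 24.1 CPM in ein2-5 with glucose. Its ein2-5 libraries began at 24.1 CPM, far above the highest Col-0 library of 5.21 CPM, and the difference was 2.69 without and 2.5 with glucose (SE 0.17 each). The mannose-binding lectin gene AT5G35940 had 1.55 to 4.35 CPM over the 6 Col-0 libraries and 16.1 to 24.1 CPM over the 6 ein2-5 libraries. BGLU25 and BGLU15, further beta-glucosidases, had differences of 1.36 without and 1.28 with glucose and of 1.09 without and 1.35 with glucose.

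PBP1 and JAL31 lie side by side on the plus strand of chromosome 3, 535 bases apart, and their promoters are shown because both neighbours were members and their windows resemble each other. An alignment of the 250 bases before each gene (chr3:5579040-5579289, plus strand and chr3:5581318-5581567, plus strand) paired 214 bases, of which 187 (87.4%) were the same. It set a further 72 bases against gaps, which that percentage does not count. Capitals mark the longest stretch that both share, 27 bases.
PBP1: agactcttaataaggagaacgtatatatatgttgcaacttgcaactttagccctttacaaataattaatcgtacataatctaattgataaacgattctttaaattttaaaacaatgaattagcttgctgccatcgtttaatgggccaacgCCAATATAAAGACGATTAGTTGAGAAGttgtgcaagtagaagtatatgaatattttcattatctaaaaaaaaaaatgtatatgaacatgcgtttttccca
JAL31: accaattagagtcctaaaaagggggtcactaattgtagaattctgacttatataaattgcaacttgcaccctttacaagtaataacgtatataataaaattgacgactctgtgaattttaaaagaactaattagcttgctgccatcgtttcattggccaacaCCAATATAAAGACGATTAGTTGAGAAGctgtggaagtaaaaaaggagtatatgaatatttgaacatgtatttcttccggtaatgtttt
The shared stretch began 100 bases before PBP1 and 88 bases before JAL31, and it holds the letters TATAAA. That motif was found in 50% of member promoters and 46% of all promoters.

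**Figure D3:**
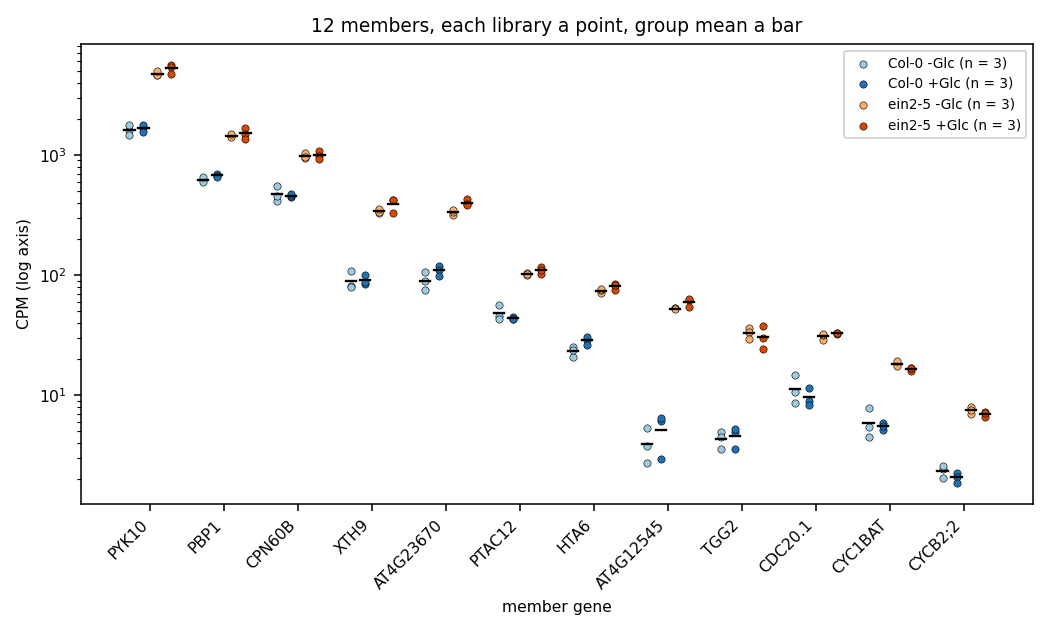
CPM on a log axis for 12 members, with a point for each library and a bar for the mean of the 3 libraries of a group. For each gene the ein2-5 libraries (orange) lie above the Col-0 libraries (blue), as the rule requires, and PYK10 is the highest, at 4595 to 5633 CPM in ein2-5.

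Plastid genes gave 6 members, all well expressed. PDE312 (PTAC10) and PTAC12 belong to the proteins associated with the plastid-encoded RNA polymerase, which transcribes the photosynthesis genes of the chloroplast. PDE312 stood at 39.6, 38.4 and 47.8 CPM in Col-0 without glucose, 38.7, 38.6 and 41 CPM in Col-0 with glucose, 104, 94 and 112 CPM in ein2-5 without glucose and 108, 127 and 109 CPM in ein2-5 with glucose. PTAC12 had 42.9 to 56.1 CPM over the 6 Col-0 libraries and 101 to 118 CPM over the 6 ein2-5 libraries. Of 12 such associated proteins, 10 had every ein2-5 library above every Col-0 library, where 11.0% of all genes had. PDE312 and PTAC12 are among the 10 by the rule, and nothing is read from the count. The genotype limit was met by 3 of the 12. FTSH12 and FtsHi1, of the membrane complex that drives protein import into chloroplasts, had 57.6 to 76.5 CPM over the 6 Col-0 libraries and 122 to 174 CPM over the 6 ein2-5 libraries and 36.1 to 53.1 CPM over the 6 Col-0 libraries and 87.8 to 106 CPM over the 6 ein2-5 libraries. CPN60B, a chaperonin subunit that folds Rubisco among other proteins, was the third most abundant member by reads. Its libraries gave 413, 456 and 551 CPM in Col-0 without glucose, 450.1, 453 and 473 CPM in Col-0 with glucose, 1033, 949 and 962 CPM in ein2-5 without glucose and 1089, 981 and 926 CPM in ein2-5 with glucose. The groups did not overlap, with 551 CPM as the highest Col-0 value and 926 CPM as the lowest ein2-5 value. RFC3, a plastid ribosomal protein, had a difference of 1.2 without and 1.06 with glucose. Green shoot markers ran the other way between the genotypes, with sums lower in ein2-5 as given above.

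Cell wall genes numbered 9. XTH9, which cuts and rejoins xyloglucan in growing walls, stood at 81.1, 79.4 and 108 CPM in Col-0 without glucose, 84.5, 88.5 and 100.4 CPM in Col-0 with glucose, 331, 335 and 352 CPM in ein2-5 without glucose and 424, 329 and 426 CPM in ein2-5 with glucose. The lowest ein2-5 library was 329 CPM and the highest Col-0 library 108 CPM. PME5, a pectin methylesterase, had 7.8 to 16.1 CPM over the 6 Col-0 libraries and 37.1 to 56.5 CPM over the 6 ein2-5 libraries and a difference of 1.71 without and 2.24 with glucose. CSLD5, a cellulose synthase-like protein that works in the forming cell plate, had 17.6 to 27 CPM over the 6 Col-0 libraries and 59.7 to 78.6 CPM over the 6 ein2-5 libraries. The peroxidase gene AT3G01190 had 32.9 to 45 CPM over the 6 Col-0 libraries and 123 to 145 CPM over the 6 ein2-5 libraries. XTH33 and a pair of dirigent-like genes, AT3G24020 and AT2G39430, lay nearer to the limit, with differences of 1.28 without and 1.51 with glucose, of 1.14 without and 1.07 with glucose and of 1.04 without and 1.12 with glucose.

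On log2(CPM + 1), the largest genotype difference among the members belonged to AT4G12545, annotated as a lipid-transfer and protease-inhibitor family protein (chr4:7434199-7434858, plus strand). It stood at 5.36, 3.78 and 2.75 CPM in Col-0 without glucose, 6.07, 6.44 and 2.94 CPM in Col-0 with glucose, 52.8, 53.1 and 51.8 CPM in ein2-5 without glucose and 62.6, 54 and 63.2 CPM in ein2-5 with glucose. All ein2-5 libraries exceeded 50 CPM while no Col-0 library passed 6.44 CPM, and the difference was 3.47 without and 3.36 with glucose (SE 0.22 each). That scale holds back genes near 0 in Col-0, and by the ratio of mean CPM several others stood above it, AT1G14950 and ATS1 among them. AT1G06360, a fatty acid desaturase family gene, had 6.28 to 9.57 CPM over the 6 Col-0 libraries and 36.2 to 86.3 CPM over the 6 ein2-5 libraries, and the stearoyl carrier protein desaturase gene AT3G02620 had 0.476 to 1.09 CPM over the 6 Col-0 libraries and 5.39 to 11 CPM over the 6 ein2-5 libraries. LOX1, a lipoxygenase that oxidises fatty acids at carbon 9, had 41.9 to 61 CPM over the 6 Col-0 libraries and 104 to 158 CPM over the 6 ein2-5 libraries; its glucose difference in ein2-5, 0.299, was the second nearest to the limit from inside.

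A group of 5 members encoded proteins of seed reserves and desiccation tolerance, and their summed level had the same order as the seed marker sum among the 3 ein2-5 libraries of each condition, though not every gene alone did. ATS1, a peroxygenase (caleosin) of seed oil bodies, stood at 0.786, 0 and 0.115 CPM in Col-0 without glucose, 0.0595, 0 and 0.0668 CPM in Col-0 with glucose, 5.49, 7.26 and 10.5 CPM in ein2-5 without glucose and 1.23, 12 and 25.5 CPM in ein2-5 with glucose. Library ein2-5 +Glc 1 was far below the other 5 ein2-5 libraries, and Col-0 -Glc 1 was the highest Col-0 library. SESA4, a seed storage albumin, stood at 0.429, 0.0573 and 0 CPM in Col-0 without glucose, 0.119, 0.29 and 0.2 CPM in Col-0 with glucose, 2.81, 4.2 and 3.8 CPM in ein2-5 without glucose and 0.675, 3.71 and 17.4 CPM in ein2-5 with glucose. Again ein2-5 +Glc 1 was lowest and ein2-5 +Glc 3 highest in ein2-5, while ein2-5 -Glc 3 was below ein2-5 -Glc 2, against the order of the markers. HSD5, a steroleosin of oil bodies, had 0 to 0.571 CPM over the 6 Col-0 libraries and 0.92 to 7.34 CPM over the 6 ein2-5 libraries, AT1G22600, a late embryogenesis abundant protein, 0.179 to 0.643 CPM over the 6 Col-0 libraries and 1.59 to 5.98 CPM over the 6 ein2-5 libraries, and DSI-1VOC, a desiccation-induced protein, 0 to 0.214 CPM over the 6 Col-0 libraries and 0.368 to 5.32 CPM over the 6 ein2-5 libraries. Their summed level was 0.458 to 2.64 CPM in Col-0, 14.7, 19.9 and 26.9 CPM in ein2-5 without glucose, and 4.78, 33.7 and 61.1 CPM with glucose. Many Col-0 values were at or under the floor of 3 reads, and no fold is given. The seed marker sums without SESA4 were 144, 2196 and 3420 CPM in the same ein2-5 libraries with glucose, in replicate order.

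The rule compares group means, so opposite deviations among the 3 glucose-treated ein2-5 libraries can cancel in the glucose difference. Library ein2-5 +Glc 1 was under 0.5 times the mean of ein2-5 +Glc 2 and 3 in all 5 seed genes, in 18 of the 150 members (12%) and in 3.8% of all genes. It was so in none of the 27 mitotic, 7 histone and 6 plastid genes, nor in the 11 of the ER body and glucosidase role. Among the 20 largest genotype differences, the 5 seed genes, AT1G14950, AT5G01300, CYP702A6 and AT1G06360 showed it, the last at 0.478 times. AT1G14950, annotated as a polyketide cyclase and lipid transport family gene, stood at 0.429, 0 and 0.172 CPM in Col-0 without glucose, 0, 0 and 0.2 CPM in Col-0 with glucose, 4.6, 8.2 and 8.36 CPM in ein2-5 without glucose and 2.15, 9.84 and 21.6 CPM in ein2-5 with glucose. Within ein2-5 with glucose the libraries thus spread widely, with +Glc 1 lowest and +Glc 3 highest. AT5G01300, a phosphatidylethanolamine-binding protein family gene, had 0 to 0.786 CPM over the 6 Col-0 libraries and 1.04 to 20.7 CPM over the 6 ein2-5 libraries, and CYP702A6, a cytochrome P450 gene, 0.2 to 0.507 CPM over the 6 Col-0 libraries and 1.66 to 22.4 CPM over the 6 ein2-5 libraries.

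When Col-0 -Glc 1, ein2-5 +Glc 2 and ein2-5 +Glc 3 were left out, which leaves a single library for ein2-5 with glucose, 111 of the 150 kept a genotype difference of at least 1 in both conditions. None of the 5 seed genes then met the full rule, and their median difference with glucose was 0.80. Of the 27 mitotic genes, 22 kept the genotype limit and 18 the full rule, with medians of 1.17 without and 1.28 with glucose. All 7 histone genes and 9 of the 11 genes of the ER body and glucosidase role kept the genotype limit. The lowest difference with glucose over the 150 was 0.17, among the 72 genes with no role. The ein2-5 libraries kept still held seed marker sums of 778 to 1353 CPM without glucose and 145 CPM with glucose. The part of the marker differences in these values was therefore not tested.

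**Figure D4:**
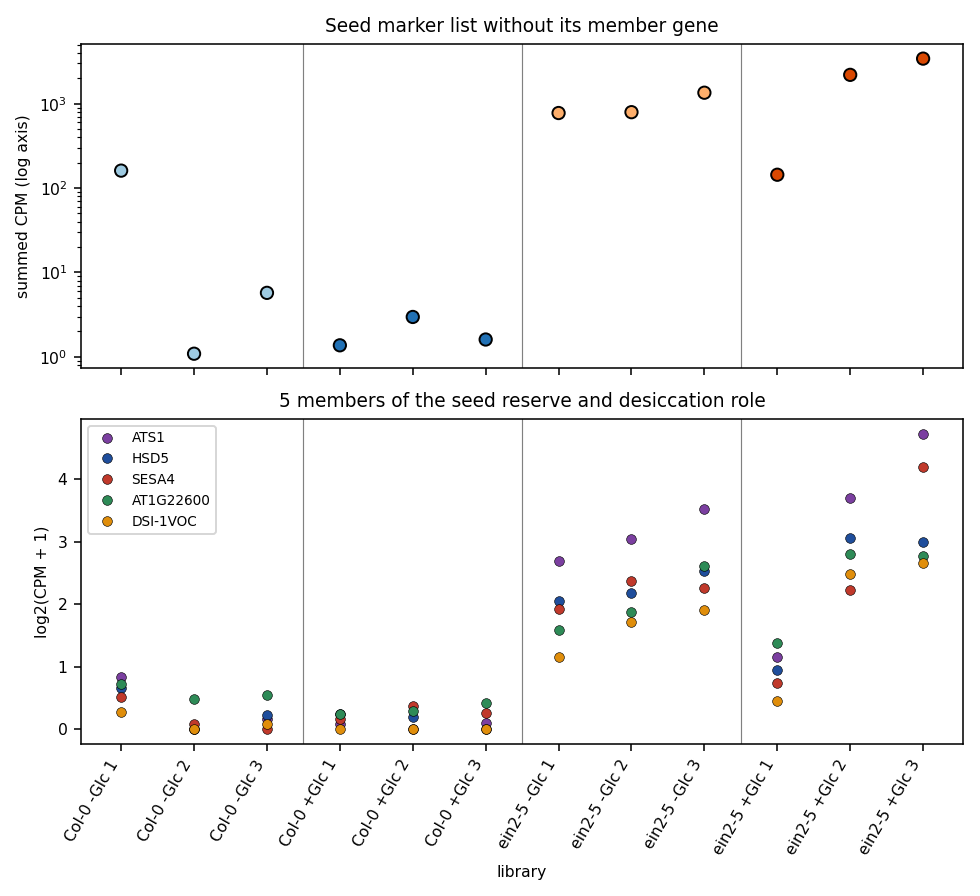
Upper panel, summed CPM of the 12 seed markers without SESA4 in each library (log axis), coloured by group. Lower panel, log2(CPM + 1) of the 5 seed reserve and desiccation members in the same libraries, where both panels are lowest within ein2-5 at +Glc 1.

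In total 7 motifs were searched in the promoters of every role, and the roles were assigned after the members were known. The shares given here for the 5 seed members are therefore a description with no test. The G-box, CACGTG, known from seed and abscisic acid responsive promoters, occurred in 4 of their 5 windows, in 9.33% of all members and in 7.5% of all promoters. The shorter core ACGTG, which every G-box contains, occurred in all 5, beside 24% of all promoters. The windows of AT1G22600 (chr1:7989218-7989467, minus strand) and DSI-1VOC (chr1:2368437-2368686, minus strand) had 2 G-boxes each and are shown for that reason, with the G-boxes in capitals.
AT1G22600: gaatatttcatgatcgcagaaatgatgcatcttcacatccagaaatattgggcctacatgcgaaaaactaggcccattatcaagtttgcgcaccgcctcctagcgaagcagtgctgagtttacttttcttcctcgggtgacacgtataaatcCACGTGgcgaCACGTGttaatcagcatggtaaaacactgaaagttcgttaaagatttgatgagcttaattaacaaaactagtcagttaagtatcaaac
DSI-1VOC: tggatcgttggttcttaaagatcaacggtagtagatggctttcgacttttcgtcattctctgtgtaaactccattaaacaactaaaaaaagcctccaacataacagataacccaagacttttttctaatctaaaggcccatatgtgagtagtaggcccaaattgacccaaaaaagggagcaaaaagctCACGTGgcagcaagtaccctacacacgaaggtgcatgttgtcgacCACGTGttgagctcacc
No promoter of the 11 genes of the ER body and glucosidase role had a G-box. The EIN3 core ATGTA occurred in 52.7% of members and 51.9% of all promoters, and the W-box core TTGAC in 45.3% and 44.9%. The GCC box GCCGCC occurred in 1 of the 150 members (0.667%) and in 1.97% of all promoters.

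Further members acted in protein turnover and detoxification. CEP3 and CEP2, papain-type proteases that are neighbours on chromosome 3, had 9.34 to 13 CPM over the 6 Col-0 libraries and 31 to 40.3 CPM over the 6 ein2-5 libraries and 10.1 to 13.2 CPM over the 6 Col-0 libraries and 24.4 to 34 CPM over the 6 ein2-5 libraries. GSTU8, a glutathione S-transferase next to PYK10 on the same strand, had 8.65 to 12.3 CPM over the 6 Col-0 libraries and 26.4 to 38.7 CPM over the 6 ein2-5 libraries. MT1C, a metallothionein, had 14.1 to 19.2 CPM over the 6 Col-0 libraries and 38.9 to 64.4 CPM over the 6 ein2-5 libraries, and MSRB5, a methionine sulfoxide reductase that repairs oxidised proteins, 5.06 to 7.82 CPM over the 6 Col-0 libraries and 13.9 to 20.7 CPM over the 6 ein2-5 libraries. GSTU22, GSTF14 and HIPP25, a heavy metal-associated protein, lay closer to the limit, with differences between 1.05 and 1.23.

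The 72 genes with no assigned role were mostly low, with a median of 6.85 CPM in ein2-5. AT4G23670, annotated as a polyketide cyclase and lipid transport family gene, was the highest of them and stood at 89.2, 75.5 and 106 CPM in Col-0 without glucose, 120.2, 110.4 and 98.4 CPM in Col-0 with glucose, 314, 335 and 350.5 CPM in ein2-5 without glucose and 426, 391 and 382 CPM in ein2-5 with glucose. Glucose values were slightly higher than the others in both genotypes, by 0.29 and 0.26. MLP328, an MLP-like protein, had 0.0573 to 0.429 CPM over the 6 Col-0 libraries and 2.18 to 7.18 CPM over the 6 ein2-5 libraries, and AT5G62330, an uncharacterised protein, 0.229 to 0.458 CPM over the 6 Col-0 libraries and 3.22 to 6.54 CPM over the 6 ein2-5 libraries. Among genes of known function outside the roles, PIP2;4, an aquaporin, had 4.81 to 8.61 CPM over the 6 Col-0 libraries and 17.1 to 24.8 CPM over the 6 ein2-5 libraries, and RHA2A, a RING-type ubiquitin ligase, 5.27 to 14.2 CPM over the 6 Col-0 libraries and 22.2 to 32.9 CPM over the 6 ein2-5 libraries. BR6OX1, an oxidase of brassinosteroid synthesis, had 0.344 to 0.796 CPM over the 6 Col-0 libraries and 2 to 2.88 CPM over the 6 ein2-5 libraries. VSP2, a storage protein gene known from jasmonate responses, was at or under 3 reads in all 6 Col-0 libraries and between 1.51 and 3.03 CPM in ein2-5. DSI-1VOC, AT1G17010 and AT5G18450 were likewise at or under 3 reads in every Col-0 library.

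**Figure D5:**
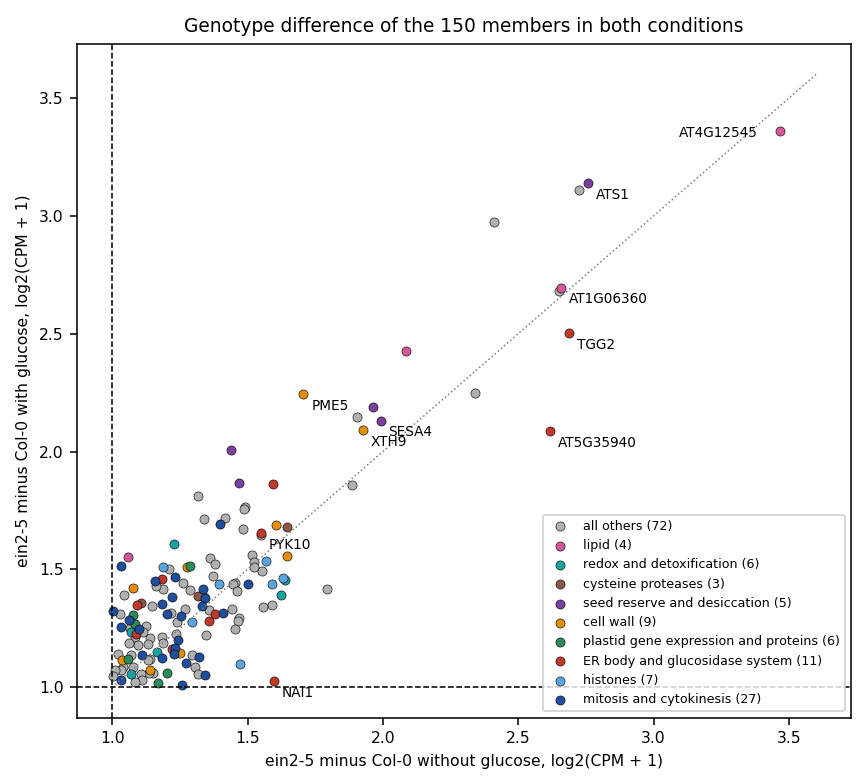
Genotype difference of each of the 150 members on log2(CPM + 1) without glucose (horizontal) and with glucose (vertical), coloured by role, with dashed lines at the limits of 1 and a dotted line of equality. Most points crowd toward the corner of the limits, 91 of 150 lie above the line of equality, and AT4G12545 is the farthest out on this scale.

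At the limits the set had no gap. The members nearest to the genotype limit were AT3G44050 at 1.002, AT5G41280 at 1.004 and ATN at 1.011, and the nearest genes outside it were CDKB1;2 at 0.997, AT4G37530 at 0.976 and TSA1 at 0.975. For the glucose limit, AT5G01300, LOX1 and AT1G22600 were inside at 0.2999, 0.299 and 0.298, and AT3G22570, IMK2 and AT2G40205 were outside at 0.301, 0.303 and 0.304.

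In position, the members were spread over all 5 chromosomes, with 39 (26%) on chromosome 3, which holds 19.9% of the table, and 32 (21.3%) on chromosome 1, which holds 26.3%. Only AT5G01300 and CYCB1;2 lay within 2 Mb of EIN2 on chromosome 5, of 632 genes of the table in that window. Members adjacent in the annotation were the pairs GSTF14 and AT1G49870, PYK10 and GSTU8, PBP1 and JAL31, and CEP2 and CEP3. Within 20 kb there were 6 clusters, 5 of them on chromosome 3, and the largest held PBP1, JAL31 and JAL34.

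Lists of other pathways show what else differed between the genotypes in the same libraries. Each gene was tested with limma, with adjustment over all 19522 genes, and counts are set beside the 35.3% and 16.0% of all genes called higher and lower in ein2-5 without glucose, and the 26.1% and 20.9% called so with glucose. With TMM factors those shares became 26.3% and 27.3% without and 25.2% and 24.0% with glucose, so the excess of higher calls without glucose depends on the scaling. No count given below for a list then moved by more than 2 genes. Of 15 genes of ethylene signalling, 3 rose and 10 fell without glucose and 2 rose and 10 fell with glucose. The receptor gene ETR2 fell by 3.31 and 3.47 on the log2 scale (adjusted p = 7.19e-07 and 5.88e-07, limma). Among 12 ethylene response genes, 8 fell and 1 rose in each condition, ARGOS among them with a fall by 2.69 and 2.86 (adjusted p = 2.37e-07 and 1.9e-07, limma). Of 9 ethylene synthesis genes, 5 rose and 3 fell without glucose, and 3 rose and 3 fell with glucose. None of these ethylene genes was a member.

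Of 22 flavonoid and anthocyanin genes, 18 rose and 2 fell in each condition. Glucosinolate synthesis had 12 of 13 genes higher without glucose and 10 higher and 1 lower with glucose. Iron uptake had 10 of 13 higher and 1 lower without glucose, and 11 higher and 1 lower with glucose. All 12 seed genes, SESA4 included, were higher in each condition. Of the 13 jasmonate genes, 4 were higher and 2 lower without glucose, and 5 higher and 6 lower with it, with VSP2 as the member on this list. Of 10 abscisic acid and cold genes, 5 were higher and 2 lower without glucose and 6 higher and 4 lower with it, and of 7 salicylate and immune genes, 2 higher and 2 lower without it and 2 higher and 3 lower with it. Root markers were higher in 10 of 13 cases in each condition and lower in 0, and green shoot markers lower in 4 of 10 and higher in 0. Of the genes on these lists, SESA4 and VSP2 alone were among the 150.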

How the data were processed

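Total RNA was taken from seedlings and sequenced as messenger RNA in 12 libraries. The authors aligned reads with TopHat to TAIR10 and counted them with HTSeq, per the submitters' processing notes; versions and strand setting are not given in the sources used here, so overlapping genes and near-identical copies are uncertain. The deposited table holds CPM, a unit read from its values, for 19522 genes. All of the values (100%) were whole reads within 0.01 reads, which gave the depths and the counts for the edgeR and DESeq2 alternatives. A count test had been planned for counts. As the table holds CPM, limma-trend was used on log2(CPM + 1), with a pseudocount of 1, no filter, all 12 libraries in a single fit of 4 group means, Benjamini-Hochberg adjustment over 19522 genes and a threshold of 0.05. The fit was made with limma 3.58.1 in R 4.3.3 and tested on simulated data. Alternatives used edgeR 4.0.16 or DESeq2 1.42.0. A total of 0 value columns was left unused.

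Symbols, products, coordinates and promoter windows came from RefSeq on TAIR10.1, joined by locus code (19352 matched, 170 not). Members, lists, roles, families and motifs were chosen with earlier results of these data known. Genes named were the 20 members with the largest mean genotype difference, the 10 with the highest level in ein2-5, the 3 nearest to the genotype limit on each side, members near EIN2 or adjacent to each other, members on a list, EIN2, and up to 3 further genes per list. Others were picked after their values were seen. Libraries of a group had Pearson r of 0.969 to 0.994.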

Additional observations from a re-analysis of the deposited data

Results flagged for a closer look

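On each pathway list, only the few non-members with the largest mean genotype difference were checked for a change of that difference with glucose. In 4 of them the genotype difference differed between the conditions by limma's test of that change, with adjustment over all 19522 genes. By the same test, 18.8% of all genes were called, and nothing is read from the number 4. Values are the difference with glucose minus that without, on log2(CPM + 1), n = 3 libraries per group. FRK1, a kinase gene of immune responses, had −3.93 (adjusted p = 2.69e-05). Without glucose FRK1 was at or under the floor of 3 reads in every library, so a genotype difference could not be read there. With glucose it stood at 14.9 to 29.8 CPM in Col-0 and at 0 to 0.681 CPM in ein2-5. AOS, of jasmonate synthesis, had −1.13 (adjusted p = 0.00158). The ethylene receptor gene ERS2 had 0.72 (adjusted p = 0.00794). EDS5, a transporter gene of salicylate synthesis, had −0.679 (adjusted p = 0.0492). The same fit gave NAI1, a member, a value of −0.571, which is a description only because the rule used the same contrasts. Groups of 3 libraries were not searched for outliers.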

How the results depend on the processing

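The number of genes that met the rule was 150 as reported and moved with its limits. It was 75 with a pseudocount of 4 (54 of the 150 among them), 69 and 266 with glucose limits of 0.2 and 0.5, and 229 and 80 with genotype limits of 0.8 and 1.2. It was 103 with TMM factors (82 of the 150 among them) and 155 with a pseudocount of 0.25 (114 of the 150 among them). Without Col-0 -Glc 1, ein2-5 +Glc 2 and ein2-5 +Glc 3 it was 128 (73 of the 150 among them). The 3 ein2-5 libraries without glucose, with seed marker sums of 778 to 1353 CPM, were kept. Leaving out each library in turn gave 110 to 193 genes, with 106 to 138 of the 150 among them. Without the 3 seed-rich libraries, 4234 genes were called between the genotypes with glucose, instead of 9180, and 4412 for glucose in ein2-5, instead of 8372; fewer libraries entered those fits, and the lone ein2-5 library with glucose was assumed to vary like the others. Over single libraries left out, the calls ranged from 7961 to 10630 between the genotypes without glucose and from 7413 to 9717 with glucose. For glucose they ranged from 10471 to 12233 in Col-0 and from 6408 to 9004 in ein2-5. The share of higher calls was 68.8% between the genotypes without glucose and 49.1% with TMM factors, and 67.3% and 50.5% for glucose in Col-0. The remaining alternatives, edgeR and DESeq2 on recovered reads among them, left each count of calls within 1.5 times.

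Deviations of same-numbered libraries from their group means had correlations of −0.302 to 0.611, over 0.1 in 12 of 18 pairs. All 3 pairs between ein2-5 without and with glucose were over 0.1 (0.611, 0.151 and 0.453), whereas each of the other contrasts tested had at least 1 pair below it. Library ein2-5 -Glc 2 correlated more closely with ein2-5 +Glc 3 (0.241) than with ein2-5 +Glc 2. The labels do not say what a number marks, so no pairing was assumed across the design. With the replicate block, 10610 and 9742 genes were called between the genotypes without and with glucose, and 12334 and 9007 for glucose in Col-0 and ein2-5, against 10008, 9180, 11775 and 8372 without it. Of the 61 members under 10 CPM in ein2-5, some rest on few reads in Col-0, such as AT5G01300 with 14 over all Col-0 libraries. Others had more there, such as CYCB1;3 with 199 and ATN with 365.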
